A study of Mus musculus with 6 samples.

Results

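Collagen chains are the protein subunits of collagens. The 44 chains described here are the protein-coding genes of the deposited gene table, which lists 54532 genes, whose symbol is Col, a number, the letter a and a number. Their RNA was measured by bulk sequencing of inguinal white fat, which lies under the skin. There were 3 Cdo1AKO samples, with Cdo1 deleted in adipose tissue, and 3 control samples whose Cdo1 gene was floxed (Cdo1 flox/flox), which the genotype field of the labels calls WT. All mice were 8 weeks old when a high-fat diet began and stayed on it for 15 weeks. The Cre line, the number of animals behind each sample and the animals' sex are not given in the sources used here. Since the labels do not state that each sample is a different animal, the spread behind every p-value may be technical.

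Collagen chains wind around each other into trimers that are secreted and assembled outside the cell. Fibrillar collagens form the cables of connective tissue, and type IV collagen forms the sheet-like network of the basement membrane that encloses every adipocyte and vessel. Type VI collagen makes beaded filaments that are abundant around adipocytes, and fibril-associated collagens sit on the surface of fibrils. In fat, adipocyte expansion on a rich diet is known to go with remodelling of this matrix.

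Cdo1 encodes cysteine dioxygenase, which oxidises cysteine. It had 123, 392 and 134 CPM (counts per 1000000 of the scaled library size) in Cdo1AKO 1 to 3, against 887, 432 and 631 CPM in control 1 to 3. The groups did not overlap, but Cdo1AKO 2 lay near control 2. Libraries also differed in lymph node transcripts. The median level of 18 B cell and lymph node stroma markers was 41.8, 0.386 and 42.9 CPM in Cdo1AKO 1 to 3 and 0.0614, 68.5 and 39.6 CPM in control 1 to 3. Cdo1AKO 2 and control 1 were the libraries without these transcripts, with 0 CPM of the lymph node venule gene Glycam1 in both, and the other 4 carried them. The 12 adipocyte markers totalled 30964, 62262 and 32171 CPM in Cdo1AKO 1 to 3, against 79809, 50837 and 62883 CPM in control 1 to 3. In bulk tissue, fewer cells of a type and less RNA per cell cannot be told apart.

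Of the 44 chains, 32 passed the filter on low counts and were tested among 16623 genes. The 12 untested chains never exceeded 20 counts in a library. They were the cartilage chains Col2a1, Col9a1, Col9a2, Col10a1 and Col11a1, the basement membrane chain Col4a6, and Col8a2, Col19a1, Col22a1, Col24a1, Col25a1 and Col26a1. Col9a1 had 0 counts in all 6 libraries. All collagen counts together made up 0.571%, 1.501% and 0.531% of the library in Cdo1AKO 1 to 3, against 0.452%, 0.482% and 0.468% in control 1 to 3. Cdo1AKO 2 thus stood far above the other 5 libraries.

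Within the tested chains, 3 patterns are described below. The abundant chains were high in Cdo1AKO 2 and near control in Cdo1AKO 1 and 3. Col16a1 and Col4a4 were higher in all 3 Cdo1AKO libraries than in any control library, at 2.13 to 5.45 times the control mean. Col3a1, Col5a1, Col6a6 and Col23a1 also did not overlap, but reached at most 1.71 times the control mean in Cdo1AKO 1 and 3. A few scarce chains had their lowest levels in the libraries without lymph node transcripts. Regulatory sequence is shown for 1 gene of the first pattern, Col3a1, and for the genes of the second. For Col16a1 and Col3a1 it is the 250 bases before the gene's start, plus strand, and for Col4a4 the 71 bases between its start and the start of Col4a3, on the minus strand, the strand of Col4a4. The positions in GRCm38 (mm10) are chr4:130047590-130047839 for Col16a1, chr1:45311288-45311537 for Col3a1 and chr1:82586850-82586920 for the interval. Sequences are from RefSeq, GRCm38.p6. Capitals mark 4 motifs that were searched on both strands. The letters CCAAT are called the CCAAT box. The core promoter motif called the TATA box was searched as TATAAA. The binding motif of Sp1, known as the GC box, was searched as GGGCGG. The motif of SMAD proteins, which carry TGF-beta signals to collagen genes, was searched as CAGAC.
Col16a1: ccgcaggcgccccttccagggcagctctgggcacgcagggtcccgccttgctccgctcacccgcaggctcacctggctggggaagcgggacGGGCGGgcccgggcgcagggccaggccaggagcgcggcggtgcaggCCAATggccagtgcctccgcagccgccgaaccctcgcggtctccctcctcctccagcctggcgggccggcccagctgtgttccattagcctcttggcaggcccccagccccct
Col3a1: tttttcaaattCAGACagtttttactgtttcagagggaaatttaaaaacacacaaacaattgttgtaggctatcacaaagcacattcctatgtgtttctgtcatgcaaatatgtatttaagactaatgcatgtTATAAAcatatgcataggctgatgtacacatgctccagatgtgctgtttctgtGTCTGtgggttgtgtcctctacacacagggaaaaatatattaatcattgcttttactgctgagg
Col4a3-Col4a4 interval: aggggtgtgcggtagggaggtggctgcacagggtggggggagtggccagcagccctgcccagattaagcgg
The Col16a1 window held 1 match to GGGCGG and 1 to CCAAT, and the Col3a1 window held 1 match to TATAAA and 2 to CAGAC. The interval held no match to the 4 motifs. These are matches of letters at any distance from the start, and the TATAAA of Col3a1 lies near the middle of its window. Whether they act was not tested. RefSeq windows of 300 bases, from 250 before to 50 after the start, were found for 35 of the 44 chains (38 windows). Only the 250 bases before the start were searched for the motifs. A GC box occurred in 57.9% of collagen windows and in 32.7% of all 32851 windows. The other motifs occurred at similar shares in both, 34.2% and 33.8% for the CCAAT box, 13.2% and 12.4% for the TATA box, and 44.7% and 42.2% for the SMAD element.

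Across all tested genes, edgeR's quasi-likelihood test with Benjamini-Hochberg adjustment called 0 genes at 0.05, or 0% of genes, and 0 collagen chains. At an unadjusted p under 0.05 there were 3 higher chains (Col16a1, Col4a4 and Col23a1), where 4.66% of all genes were higher, and 0 lower chains, where 5.71% of all genes were lower. Limma-voom also called 0 chains, and DESeq2 called 2, Col16a1 and Col4a4. In the authors' deposited table the same chains were the only members with an adjusted p under 0.05, where 1% of all its genes with an adjusted p passed.

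Fold changes were positive for 28 of the 32 chains, where 56% of all genes were positive. The median log2 fold change was 0.69 over the chains and 0.06 over all genes. Groups did not overlap, with Cdo1AKO higher, for 6 tested chains (8.87% of all genes). They were Col3a1, Col5a1, Col4a4, Col6a6, Col16a1 and Col23a1. Col20a1 was the only tested chain that lay lower in every Cdo1AKO library (9.73% of all genes). Cdo1AKO 2 had the highest level of the 6 libraries in 22 of the 32 chains, or 68.8%, against 31.7% of all genes. Without Cdo1AKO 2, the fold change was positive for 20 of 33 tested chains and for 8787 of 17255 tested genes. The median was 0.075 over the chains and 0.012 over all genes, and edgeR again called 0 genes. Col16a1 and Col4a4 then had log2 fold changes of 1.93 (edgeR adjusted p = 0.0776) and 1.205 (edgeR adjusted p = 0.0932).

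**Figure D1:**
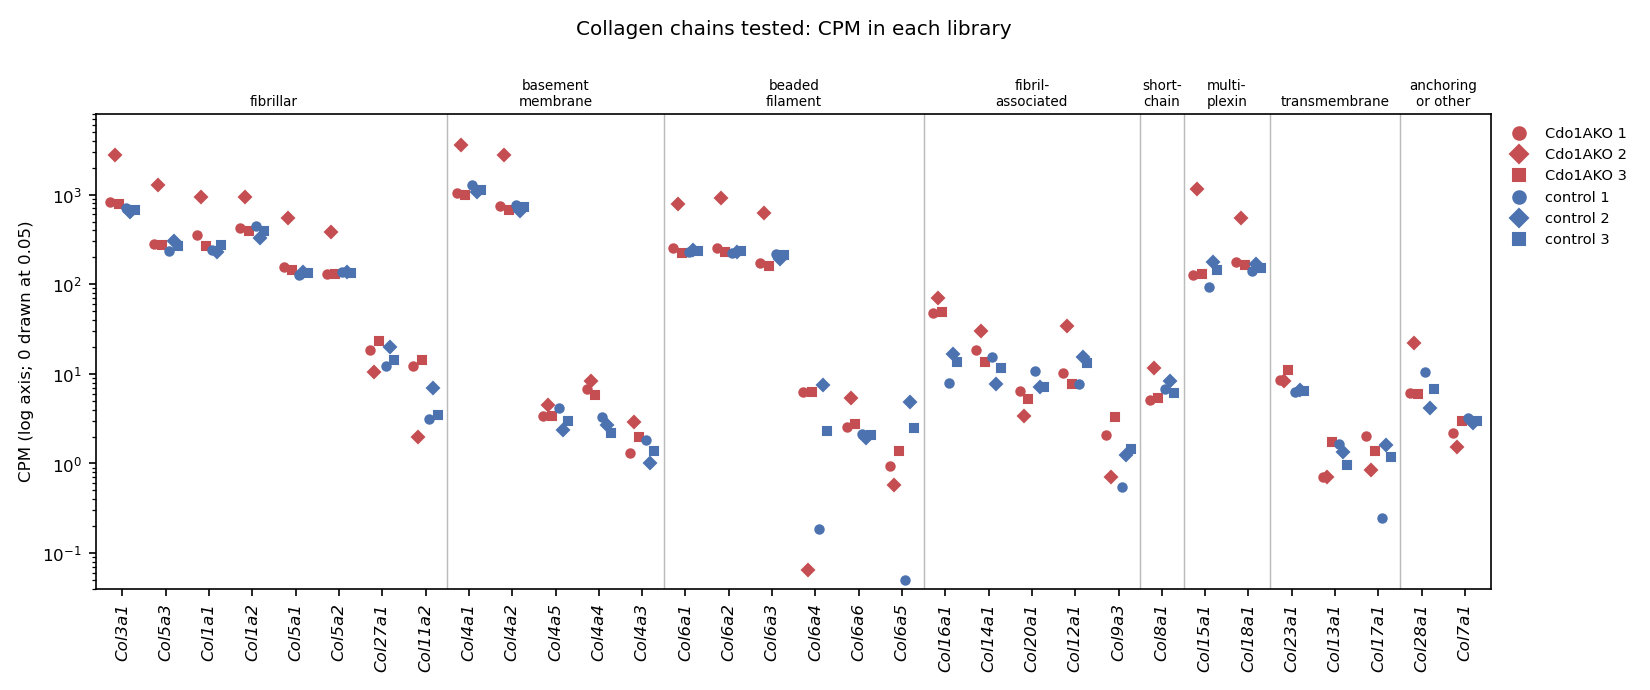
CPM on a log axis of the 32 tested chains by class, 1 point per library, Cdo1AKO in red to the left of control in blue. The red diamond, Cdo1AKO 2, lies above the other libraries for the abundant chains, while for Col16a1 and Col4a4 all 3 red points lie above the blue ones.

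Fibrillar chains were positive in 8 of 8 tested members, with a median log2 fold change of 1.08, and none passed the test. Col3a1, the chain of type III collagen, had 832, 2743 and 790 CPM in Cdo1AKO 1 to 3, against 713, 643 and 679 CPM in control 1 to 3. Its groups did not overlap, with a log2 fold change of 1.10 ± 0.53 (SE, 3 libraries per group) and an edgeR adjusted p of 0.540. Col1a1, the major chain of type I collagen, had 350, 946 and 265 CPM in Cdo1AKO libraries, against 242, 230 and 272 CPM in control libraries. The log2 fold change was 1.07 ± 0.49 (edgeR adjusted p = 0.523), and Cdo1AKO 3 lay below control 3. Its partner in the trimer, Col1a2, had 420, 951 and 397 CPM in Cdo1AKO, against 443, 326 and 396 CPM in control. Cdo1AKO 1 and 3 lay within the control range for Col1a2.

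Type V collagen joins type I fibrils at their core and limits their width. Col5a1 had 155, 543 and 146 CPM in Cdo1AKO libraries, against 127, 137 and 134 CPM in control libraries. Every Cdo1AKO value exceeded every control value, 2 of them by a small margin, and the log2 fold change was 1.08 ± 0.53 (edgeR adjusted p = 0.553). Col5a2 had 130, 380 and 130 CPM in Cdo1AKO, against 138, 136 and 134 CPM in control, so that only Cdo1AKO 2 was high. Col5a3, the alternative chain of this trimer, had 278, 1293 and 276 CPM in Cdo1AKO, against 234, 302 and 269 CPM in control. Its log2 fold change was 1.197 ± 0.64 (edgeR adjusted p = 0.579).

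Basement membrane chains were positive in 5 of 5 tested members, with a median log2 fold change of 0.69, and none passed the test over 6 libraries. Type IV collagen had the highest levels per length. Per kilobase of listed gene length, Col4a1 averaged 250 CPM in Cdo1AKO and 155 CPM in control, and Col4a2 averaged 213 CPM in Cdo1AKO and 108 CPM in control. Next came Col3a1, with 148 CPM per kilobase in Cdo1AKO and 69.1 in control. Col4a1 and Col4a2, which form the common basement membrane trimer, start head to head on chromosome 8, with 22 bases of overlap. Col4a1 had 1056, 3551 and 987 CPM in Cdo1AKO 1 to 3, against 1271, 1069 and 1125 CPM in control 1 to 3. Cdo1AKO 1 and 3 lay below all control libraries and Cdo1AKO 2 far above them. Col4a2 had 754, 2797 and 675 CPM in Cdo1AKO, against 772, 659 and 723 CPM in control. Neither passed the edgeR test, with log2 fold changes of 0.69 ± 0.54 (adjusted p = 0.687) and 0.97 ± 0.58 (adjusted p = 0.613).

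Col4a3, Col4a4 and Col4a5 form the other type IV trimer, best known from the filtration membrane of the kidney. Col4a4 (ENSMUSG00000067158) lies on the minus strand of chromosome 1 in mm10, at 82448423 to 82586849. It had 6.75, 8.30 and 5.82 CPM in Cdo1AKO 1 to 3, against 3.31, 2.68 and 2.20 CPM in control 1 to 3. These rest on 135, 129 and 106 counts in Cdo1AKO, against 54, 50 and 41 in control. All Cdo1AKO libraries were higher, with a mean of 6.96 ± 1.25 CPM in Cdo1AKO and 2.73 ± 0.559 CPM in control (SD, n = 3 each). The log2 fold change was 1.35 ± 0.27, with an unadjusted p of 0.00223 and an adjusted p of 0.294 in edgeR. In the authors' deposited table it was 1.35 with an adjusted p of 0.0087. The gene across the interval, Col4a3, had 1.30, 2.90 and 1.98 CPM in Cdo1AKO, against 1.84, 1.02 and 1.39 CPM in control, and these groups overlapped. Col4a5 on the X chromosome had 3.35, 4.50 and 3.40 CPM in Cdo1AKO, against 4.17, 2.35 and 3.003 CPM in control, again overlapping. The log2 fold changes of Col4a3 and Col4a5 were 0.53 ± 0.42 (edgeR adjusted p = 0.689) and 0.24 ± 0.31 (edgeR adjusted p = 0.808). Whether the difference of Col4a4 exceeds that of Col4a3 was not tested.

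Beaded filament chains were positive in 5 of 6 tested members, with a median log2 fold change of 0.70. Type VI collagen is a trimer of Col6a1, Col6a2 and Col6a3. Col6a1 had 257, 787 and 223 CPM in Cdo1AKO 1 to 3, against 228, 241 and 237 CPM in control 1 to 3. Col6a2 had 251, 918 and 230 CPM in Cdo1AKO, against 223, 230 and 235 CPM in control. In both, Cdo1AKO 2 was the only library away from the rest. Col6a3, whose carboxyl end is released as the adipose signal endotrophin, had 174, 626 and 160 CPM in Cdo1AKO, against 218, 192 and 214 CPM in control. For this chain Cdo1AKO 1 and 3 lay below every control library, and the log2 fold change was 0.62 ± 0.55 (edgeR adjusted p = 0.714). Col6a6, a related chain, had 2.55, 5.34 and 2.75 CPM in Cdo1AKO, against 2.15, 1.93 and 2.09 CPM in control. Its groups did not overlap, with a log2 fold change of 0.78 ± 0.37 (edgeR adjusted p = 0.537).

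Col16a1 had the largest fold change of the tested chains. It encodes the chain of type XVI collagen, a fibril-associated collagen found in fibroblasts and smooth muscle. Col16a1 (ENSMUSG00000040690) lies on the plus strand of chromosome 4 in mm10, at 130047840 to 130099283. It had 48.2, 69.4 and 49.1 CPM in Cdo1AKO 1 to 3, against 7.85, 16.7 and 13.6 CPM in control 1 to 3. The groups lay far apart, at 55.6 ± 12.0 CPM in Cdo1AKO and 12.7 ± 4.51 CPM in control (SD, n = 3 each). The log2 fold change was 2.12 ± 0.32, with an unadjusted p of 0.000464 and an adjusted p of 0.230 in edgeR. In the authors' deposited table it was 2.13 with an adjusted p of 2.27e-06. Unlike the abundant chains, the level was 3.78 and 3.86 times the control mean in Cdo1AKO 1 and 3 and 5.45 times in Cdo1AKO 2.

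The 5 tested fibril-associated chains had a median log2 fold change of 0.83, with 4 positive. The other 4 did not lie higher in every Cdo1AKO library. Col14a1 had 18.4, 29.8 and 13.6 CPM in Cdo1AKO, against 15.3, 7.65 and 11.7 CPM in control. Col12a1 had 10.2, 34.4 and 7.74 CPM in Cdo1AKO, against 7.73, 15.5 and 13.2 CPM in control. Both sets of groups overlapped. Col20a1 had 6.45, 3.35 and 5.27 CPM in Cdo1AKO, against 10.7, 7.06 and 7.18 CPM in control, with a log2 fold change of -0.72 ± 0.32 (edgeR adjusted p = 0.517). It lay lower in every Cdo1AKO library, but it overlaps 9230112E08Rik on the same strand, which had 860 counts in the 6 libraries to 717 of Col20a1, so reads of the 2 genes cannot be told apart where they overlap.

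The multiplexins Col15a1 and Col18a1 sit at the basement membrane, and the end of Col18a1 is released as endostatin. Col15a1 had 128, 1143 and 129 CPM in Cdo1AKO 1 to 3, against 93.1, 176 and 146 CPM in control 1 to 3. Cdo1AKO 2 had 8.28 times the control mean, and Cdo1AKO 1 and 3 lay within the control range. Col18a1 had 176, 551 and 166 CPM in Cdo1AKO, against 139, 167 and 153 CPM in control. It overlaps Slc19a1, whose counts came to 10.2% of those of Col18a1. The log2 fold changes were 1.76 ± 0.92 for Col15a1 (edgeR adjusted p = 0.569) and 0.96 ± 0.49 for Col18a1 (edgeR adjusted p = 0.565). Among transmembrane chains, Col23a1 had 8.65, 8.30 and 11.03 CPM in Cdo1AKO, against 6.26, 6.63 and 6.49 CPM in control. Its groups did not overlap, and its log2 fold change was 0.53 ± 0.20 (edgeR unadjusted p = 0.0364, adjusted p = 0.448).

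A further 7 scarce chains had overlapping groups and did not pass the test over 6 libraries. Col9a3, a partner of cartilage collagen, had the highest log2 fold change of them, at 0.91 ± 0.64, and Col7a1, which anchors the skin's epithelium, the lowest, at -0.42 ± 0.32. Between these lay Col28a1 (0.68 ± 0.62), Col17a1 of hemidesmosomes (0.49 ± 0.69), the fibrillar chain Col27a1 (0.17 ± 0.34), Col8a1, a chain of vessel walls (0.06 ± 0.37), and the transmembrane chain Col13a1 (-0.32 ± 0.49).

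**Figure D2:**
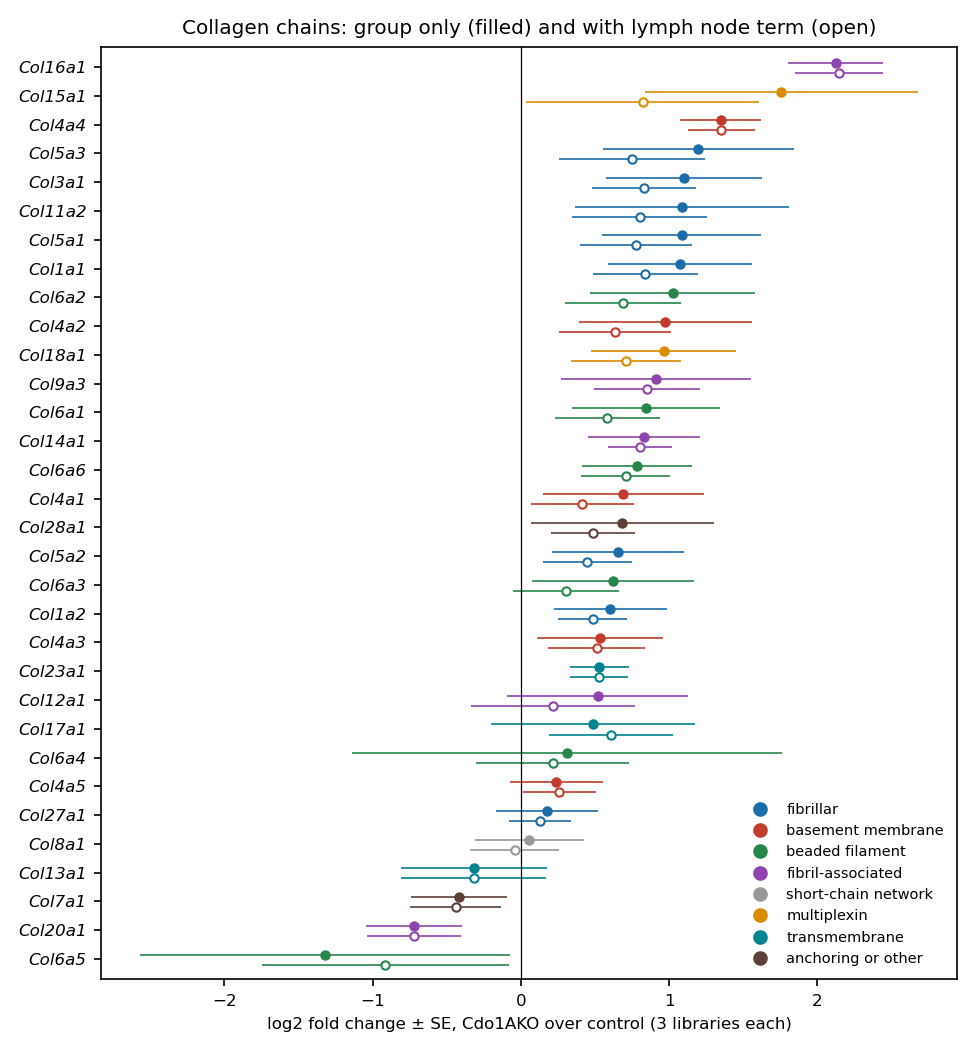
log2 fold changes of Cdo1AKO over control with SE for the 32 tested chains, filled with group as the only term and open with the lymph node term, coloured by class. Col16a1 (2.12) and Col4a4 (1.35) have the smallest errors among the chains of large fold change and keep their values under both fits.

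The 13 chains with a control mean of at least 100 CPM shared the first pattern. They were Col1a1, Col1a2, Col3a1, Col4a1, Col4a2, Col5a1, Col5a2, Col5a3, Col6a1, Col6a2, Col6a3, Col15a1 and Col18a1. Cdo1AKO 2 was the highest library for all 13, at 2.45 to 8.28 times the control mean. In Cdo1AKO 1 and 3 the same chains lay between 0.769 and 1.41 times the control mean. This threshold was set after the values were seen, and the range has no test.

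Since Cdo1AKO 2 and control 1 lacked lymph node transcripts, each stratum was read on its own. Over the 30 tested chains with more than 3 counts in both, the median log2 ratio of Cdo1AKO 2 over control 1 was 1.40. Of these chains, 25 of 30 lay above 0. Over all genes with such counts the median was 0.07, and 8575 of 15706 lay above 0. This is 1 library against 1 and has no test. Within the 4 libraries with lymph node transcripts, Cdo1AKO 1 and 3 were compared with control 2 and 3. The median log2 fold change was 0.15 for the chains and 0.00 for all genes. Fold changes were above 0 for 21 of 32 chains and for 8576 of 17049 genes. For the 13 abundant chains these fold changes ran from -0.32 to 0.29, none passed the test, and their 95% intervals lay within -0.61 and 0.67. The unadjusted interval lay above 0 for Col3a1 (0.018 to 0.56). It lay below 0 for Col6a3 (-0.55 to -0.018) and Col15a1 (-0.61 to -0.037), and it included 0 for the other abundant chains.

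In those 4 libraries edgeR called 3 chains higher, where 7.65% of all genes were called higher, and 1 lower, where 7.7% were called lower. Col16a1 had a log2 fold change of 1.68 ± 0.13 (edgeR adjusted p = 0.00272) and Col4a4 of 1.36 ± 0.25 (edgeR adjusted p = 0.0158). The other two were Col11a2 and Col6a5, named here after their values were seen. Col11a2, a fibrillar chain best known from cartilage, had 12.4, 1.99 and 14.3 CPM in Cdo1AKO 1 to 3, against 3.13, 6.90 and 3.49 CPM in control 1 to 3. The 2 high libraries were Cdo1AKO 1 and 3, and the log2 fold change within the 4 libraries was 1.36 ± 0.30 (edgeR adjusted p = 0.0281). Col6a5 had 0.950, 0.579 and 1.37 CPM in Cdo1AKO, against 0, 4.82 and 2.47 CPM in control, and control 2 was the highest library. Within the 4 libraries it fell, with a log2 fold change of -1.65 (edgeR adjusted p = 0.0423). Cell type markers also differed within these libraries. All 8 T cell markers were called higher, with a median log2 fold change of 1.75. They summed to 839 and 865 CPM in Cdo1AKO 1 and 3, against 337 and 197 CPM in control 2 and 3. Called lower were 11 of 12 adipocyte markers (median -0.85) and 4 of 9 Schwann cell markers (median -1.47). The part of these markers in the collagen values was not tested.

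A fit over all 6 libraries with the lymph node transcripts as a second term called Col16a1 and Col4a4 higher, and no chain lower. With that term, 2.26% of all genes were called higher and 1.87% lower. The log2 fold change of Col16a1 was 2.14 ± 0.30 (edgeR adjusted p = 0.0249) and that of Col4a4 was 1.35 ± 0.23 (edgeR adjusted p = 0.0335). For Col4a4 the log2 ratio of Cdo1AKO 2 over control 1 was 1.32, within 1 SE of the value in the other 4 libraries. For Col16a1 it was 3.14. Col6a4, named after its values were seen, had 6.20, 0.0643 and 6.26 CPM in Cdo1AKO 1 to 3, against 0.184, 7.60 and 2.31 CPM in control 1 to 3, so that the 2 libraries without lymph node transcripts had its lowest levels. The part of lymph node content in this was not tested.

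**Figure D3:**
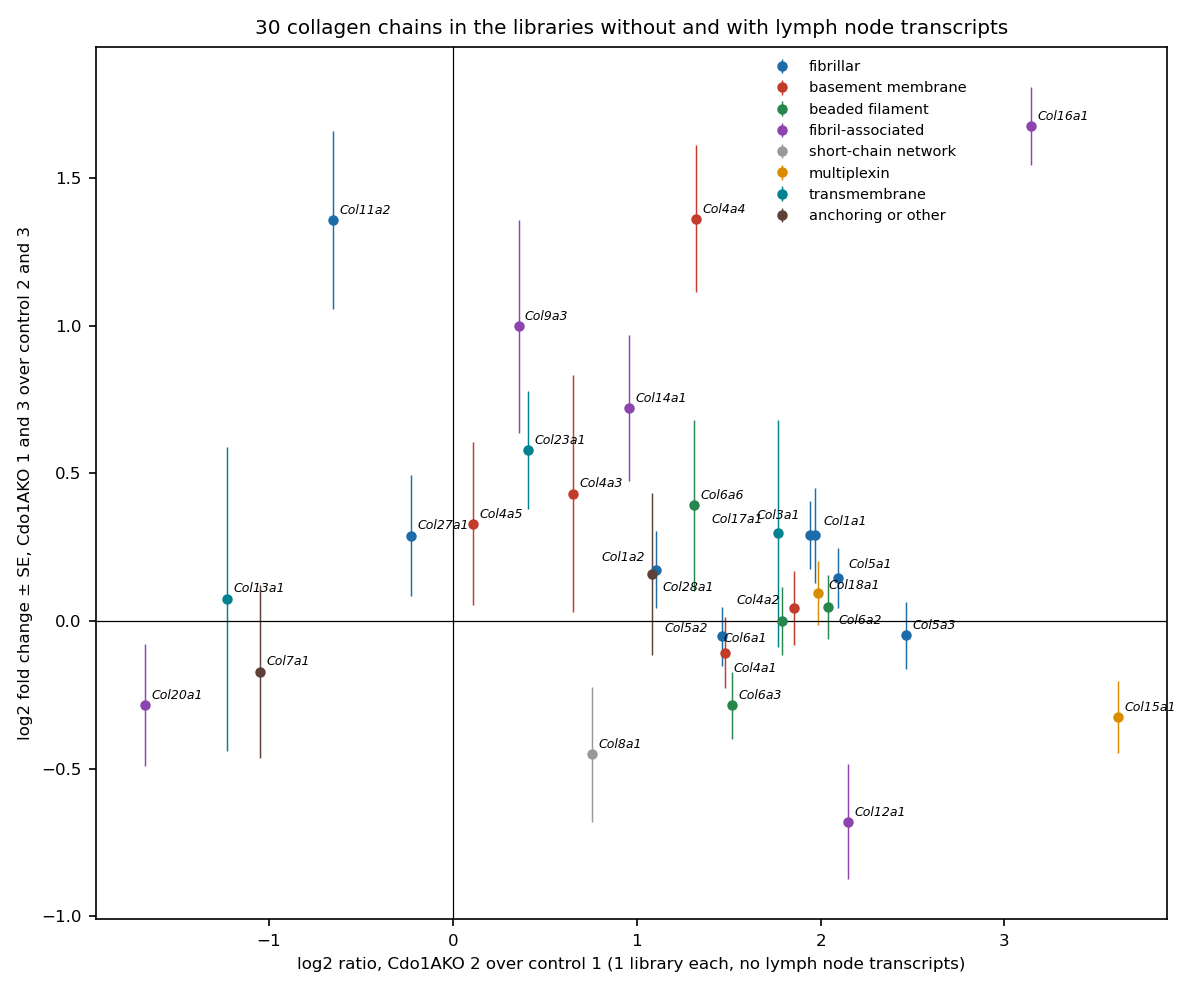
The log2 ratio of Cdo1AKO 2 over control 1 (horizontal, 1 library each) against the log2 fold change with SE within the 4 libraries with lymph node transcripts (vertical) for 30 chains. The abundant chains lie to the right of 0, from 1.10 for Col1a2 to 3.62 for Col15a1, and near 0 vertically. Col16a1 (3.14 and 1.68) and Col4a4 (1.32 and 1.36) lie above 0 on both axes and highest vertically.

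Ratios between chains of a trimer do not depend on library size. Per kilobase, the ratio of Col4a1 to Col4a2 was 1.24, 1.13 and 1.30 in Cdo1AKO 1 to 3, against 1.46, 1.44 and 1.38 in control 1 to 3. It was lower in every Cdo1AKO library. The ratio of Col5a1 to Col5a2 was 1.34, 1.61 and 1.27 in Cdo1AKO, against 1.04, 1.14 and 1.14 in control, and was higher in every Cdo1AKO library. The ratio of Col4a4 to Col4a3 was 4.88, 2.69 and 2.77 in Cdo1AKO, against 1.69, 2.47 and 1.48 in control, also without overlap. It rests on few Col4a3 counts, 26, 45 and 36 in Cdo1AKO 1 to 3 and 30, 19 and 26 in control 1 to 3. Col4a3 also overlaps the gene C430014B12Rik, whose counts came to 28% of those of Col4a3. The ratio of Col6a3 to Col6a1 was 0.248, 0.292 and 0.263 in Cdo1AKO, against 0.351, 0.291 and 0.331 in control, and overlapped only through Cdo1AKO 2 and control 2. The ratios of Col1a1 to Col1a2, Col6a1 to Col6a2 and Col5a3 to Col5a1 overlapped between the groups. The groups were thus apart for 3 of the 7 trimer ratios computed, some of which share a chain, and none was tested. No share over other gene pairs was computed. For single genes, the groups did not overlap for 8.87% (higher) and 9.73% (lower) of all genes.

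**Figure D4:**
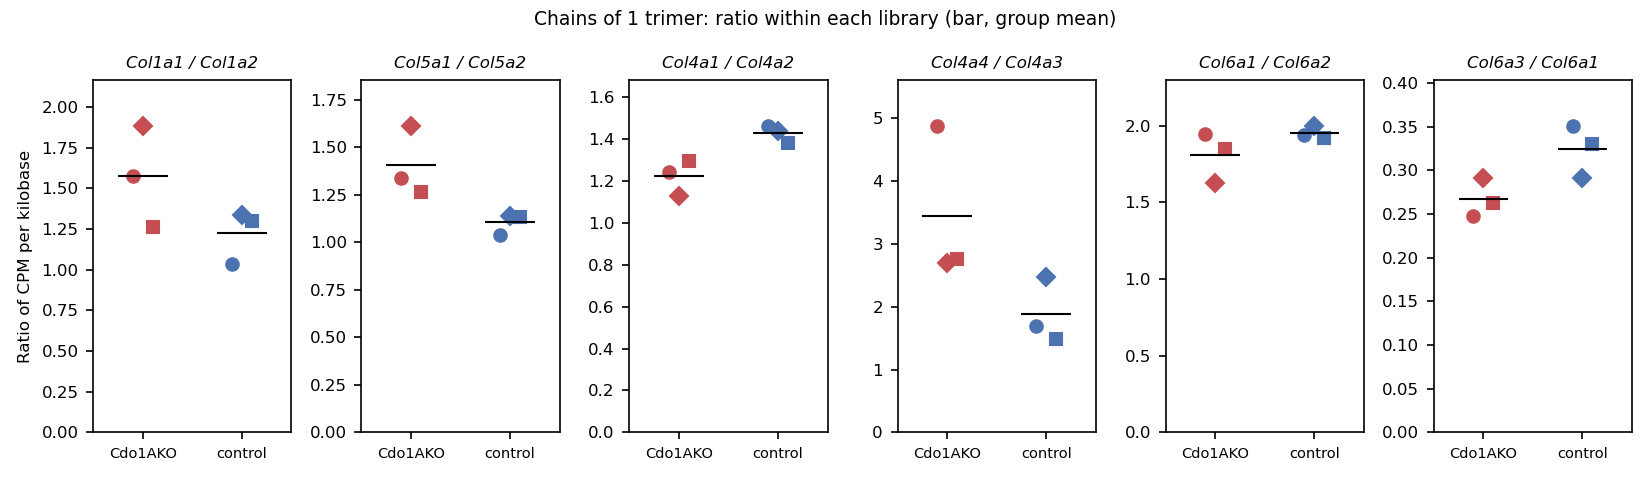
Ratio of CPM per kilobase between chains of 1 trimer in each library, with the group mean as a bar and the axis from 0, Cdo1AKO left of control (circles, diamonds and squares are replicates 1, 2 and 3). Cdo1AKO libraries lie below control for Col4a1 to Col4a2 and above it for Col5a1 to Col5a2 and Col4a4 to Col4a3.

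The genes that modify, fold, cleave and bind collagen were counted as lists. Of 14 tested prolyl and lysyl modification genes, 8 folding and export genes, 6 procollagen cleavage genes, 5 cross-linking genes and 11 receptors, edgeR called 0 in either direction. The median log2 fold changes were 0.25, 0.27, 0.82, 0.57 and 0.19, in the same order. Within the 4 libraries with lymph node transcripts the medians were -0.099, -0.12, 0.15, -0.14 and 0.28, so the modification, folding and cross-linking lists had the opposite sign there. With the lymph node term, 1 cleavage gene, Pcolce2, and 1 receptor gene, Lair1, were called higher, and no gene of these lists was called lower with that term. The same fit called 2.26% of all genes higher and 1.87% lower. Within the 4 libraries edgeR called 5 genes lower, the modification genes P4ha2 and Plod2, the folding genes Serpinh1 and Creb3l1 and the cross-linking gene Loxl1. It called 5 higher there, the cleavage genes Pcolce2 and Bmp1 and the receptor genes Mrc2, Itga2 and Lair1. Of all genes tested in those 4 libraries, 7.65% were called higher and 7.7% lower. Serpinh1, the collagen chaperone, named after its values were seen, had 225, 1044 and 222 CPM in Cdo1AKO 1 to 3, against 289, 342 and 315 CPM in control 1 to 3, and a log2 fold change of -0.56 within the 4 libraries (edgeR adjusted p = 0.0187). The 4 lower genes other than Plod2 were highest in Cdo1AKO 2. Pcolce2, known to speed removal of the procollagen end by Bmp1, had 60.3, 257 and 51.6 CPM in Cdo1AKO 1 to 3, against 24.5, 20.5 and 21.9 CPM in control 1 to 3. Every Cdo1AKO library exceeded every control library, and the log2 fold change was 2.46 ± 0.66 (edgeR adjusted p = 0.353, and 0.0413 with the lymph node term). Bmp1 itself, the procollagen proteinase, had 64.6, 131 and 55.0 CPM in Cdo1AKO, against 47.8, 41.8 and 44.4 CPM in control, with a log2 fold change of 0.91 ± 0.34 (edgeR adjusted p = 0.446).

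Mrc2, a receptor that takes up collagen for breakdown in lysosomes, had 131, 453 and 126 CPM in Cdo1AKO 1 to 3, against 48.5, 61.6 and 54.3 CPM in control 1 to 3. The groups lay apart, with a log2 fold change of 2.11 ± 0.54 (edgeR adjusted p = 0.345, and 0.0561 with the lymph node term). Itga2, a subunit of a collagen-binding integrin, had 5.25, 1.61 and 5.49 CPM in Cdo1AKO, against 1.47, 2.03 and 2.31 CPM in control, which overlapped. Lair1, an inhibitory collagen receptor of leukocytes named for its call, had 10.5, 4.12 and 11.3 CPM in Cdo1AKO, against 1.84, 5.88 and 5.84 CPM in control. In the modification list, the isomerase gene Ppib had a log2 fold change of 0.30 ± 0.14 and the prolyl hydroxylase gene P3h2 of 0.51 ± 0.24. In the folding list, the chaperone gene Fkbp10 had 0.61 ± 0.32 and the export gene Mia2 had -0.17 ± 0.15. In the cross-linking list, the lysyl oxidase genes Loxl3 and Lox had 0.57 ± 0.21 and 0.48 ± 0.28. Of these, edgeR's adjusted p was lowest for Loxl3 at 0.435.

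Summed levels show how far Cdo1AKO 2 stood apart in other lists. All collagen chains summed to 1.07, 3.64 and 0.989 times the control mean in Cdo1AKO 1 to 3. The sums of fibrillar chains were 1.17, 3.67 and 1.09 times, those of basement membrane chains 0.968, 3.38 and 0.890 times, and those of beaded filament chains 1.02, 3.43 and 0.916 times. The fibril-associated sum, of which Col16a1 was the largest part in Cdo1AKO, was 1.86, 2.99 and 1.71 times. In Cdo1AKO 2, the following marker sums lay nearer to control than the collagen sum. They were 1.49 times for fibroblast, 1.84 times for endothelial, 2.19 times for pericyte and smooth muscle and 0.965 times for adipocyte markers. Sums weigh the most abundant genes most. By gene, the median log2 ratio of Cdo1AKO 2 over the control mean was 1.43 for collagen chains and -0.035 for all genes. It was 0.85 for fibroblast, 0.83 for endothelial, 1.01 for pericyte and smooth muscle and -0.082 for adipocyte markers. In Cdo1AKO 1 and 3 the endothelial sum (0.854 and 0.802 times) and the pericyte and smooth muscle sum (1.49 and 1.43 times) lay farther from control than the collagen sum. So did the adipocyte sum, at 0.480 and 0.499 times. The 12 fibroblast and progenitor markers summed to 958, 1438 and 986 CPM in Cdo1AKO, against 1220, 726 and 952 CPM in control. The 10 endothelial markers summed to 1162, 2504 and 1091 CPM in Cdo1AKO, against 1510, 1185 and 1388 CPM in control. The 8 pericyte and smooth muscle markers summed to 984, 1445 and 942 CPM in Cdo1AKO, against 725, 594 and 657 CPM in control, which did not overlap. Mitochondrially encoded genes took 2.37%, 4.34% and 2.46% of counts in Cdo1AKO, against 3.57%, 3.19% and 3.86% in control. Cytosolic ribosomal protein genes took 3.96%, 1.795% and 4.145% in Cdo1AKO, against 2.26%, 3.02% and 2.3% in control, lowest in Cdo1AKO 2. The part of these differences in the collagen values was not tested.

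**Figure D5:**
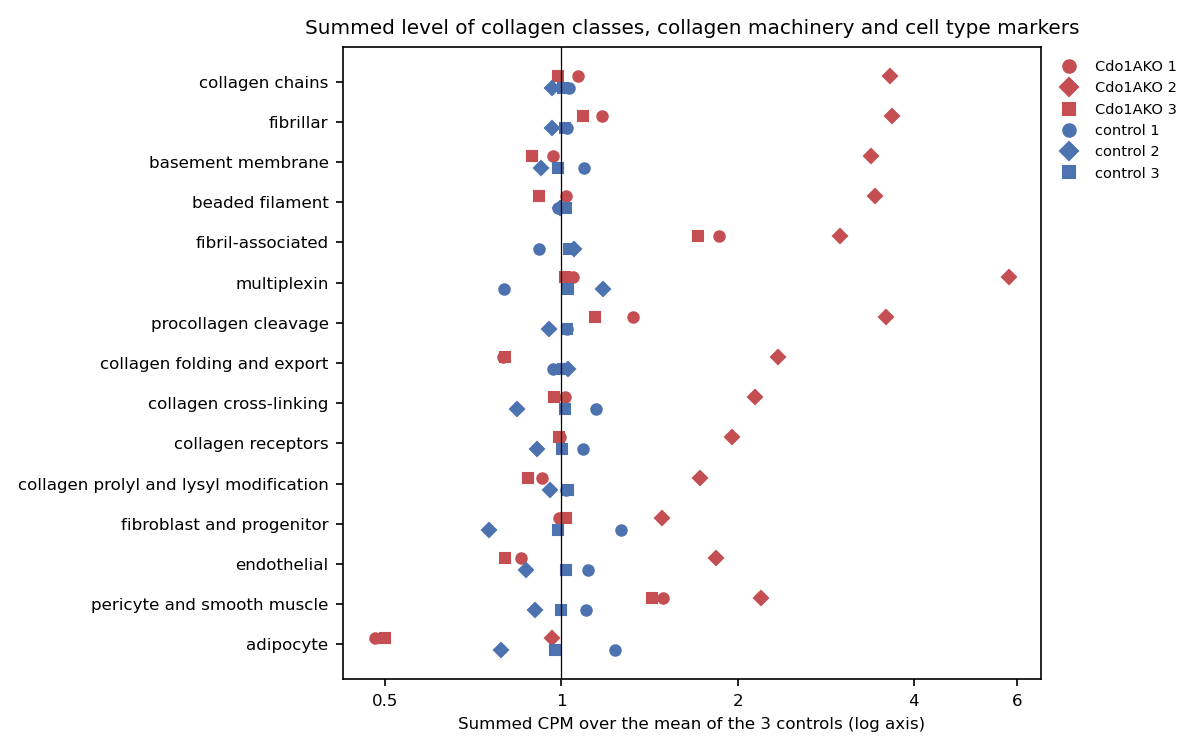
Summed CPM of collagen classes, collagen machinery and cell type marker lists over the mean of the 3 control libraries, on a log axis, with Cdo1AKO above control in each row. Cdo1AKO 2 (red diamond) has 3.64 times the control mean for all collagen chains and 1.49 times for fibroblast markers, and Cdo1AKO 1 and 3 have 1.86 and 1.71 times for fibril-associated chains.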

How the data were processed

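Raw counts per gene came from 1 table the authors deposited, with replicate numbers from the sample titles. The submitters' processing notes name DESeq2 1.20.0, featureCounts 1.5.0-p3 and HISAT2 2.0.5 with build mm10, and give them no role. The deposited table's FPKM was not used, and its log2 fold changes and adjusted p-values, per the file headers the authors' comparison of Cdo1AKO with WT, are quoted as theirs. Whether counting used strand is not stated, so overlapping genes cannot be told apart.

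Total counts were 17965163, 18065810 and 16275184 in Cdo1AKO 1 to 3 and 17830940, 17959740 and 19205804 in control 1 to 3. Genes passing filterByExpr (16623) were scaled with TMM and tested with edgeR 4.0.16 (quasi-likelihood, group as the only term, Benjamini-Hochberg threshold 0.05) in R 4.3.3. CPM uses TMM-scaled library sizes. SE is the log2 fold change divided by the square root of edgeR's F. The lymph node term marks libraries whose median marker CPM exceeds 5. Alternatives were other scalings and filters, DESeq2 1.42.0, limma-voom (limma 3.58.1), robust estimation, a replicate block and each sample left out.

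Members, gene lists, tests and the lymph node term were chosen with earlier results of these data known. Named were the 8 chains of highest CPM per kilobase, chains called with or without the lymph node term, up to 6 further chains of smallest p without overlap, trimer partners, and the 2 genes of smallest p in each pathway list. On simulated counts of the 16623 genes, the group-only test recovered 11 of 66 genes changed 4-fold and 0 of 67 changed 2-fold, and the lymph node term 52 of 66 and 34 of 67.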

Additional observations from a re-analysis of the deposited data

How the results depend on the processing

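All 6 libraries with group alone gave 0 called genes and 0 called chains under the other scalings, filters, limma-voom, robust estimation and each library left out (0 to 0). The lymph node term called 686 genes and 2 chains, the 4 libraries with lymph node transcripts 2617 genes and 4 chains, and DESeq2 271 genes (94 higher, 177 lower) and 2 chains. Correlations of same-numbered samples, as deviations from their group mean over tested genes, were -0.66, -0.67 and 0.45. Correlations between the groups were positive where both libraries had or both lacked lymph node transcripts, and negative otherwise. They therefore cannot show whether the replicate numbers pair the samples. The replicate block called 0 genes and 0 chains, with a chain median log2 fold change of 0.60.

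Median log2 fold changes moved in the 4 libraries, to 0.15 for all chains, 0.23 for fibrillar and 0.023 for beaded filament chains. With 1 library left out they ran from 0.075 to 0.93 for all chains, 0.18 to 1.02 for fibrillar, 0.092 to 0.998 for basement membrane, 0.049 to 0.95 for beaded filament and 0.47 to 1.01 for fibril-associated chains. The low end of each was without Cdo1AKO 2. In the 4 libraries the log2 fold change turned to -0.049 for Col5a3, -0.052 for Col5a2, -0.11 for Col4a1, -0.00017 for Col6a1, -0.29 for Col6a3 and -0.32 for Col15a1. With 1 library left out it ran from -0.058 to 0.92 for Col5a2, -0.18 to 0.998 for Col4a1, -0.0055 to 1.31 for Col4a2, -0.32 to 0.94 for Col6a3 and -0.10 to 2.20 for Col15a1, each low end without Cdo1AKO 2. The low number of counts limits Col4a3, Col6a5 and the untested chains. Scaling moved the median of all genes by under 0.1.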
